A study of Canis lupus familiaris with 33 samples.

Results

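Oxygen-starved and fast-growing tissue takes up more glucose, breaks it down to lactate and calls in blood vessels, and much of that program is switched on by the hypoxia-inducible factors (HIF). Their alpha subunits are hydroxylated and degraded when oxygen is present and accumulate when it is short. In carcinomas of the urinary bladder, as in other solid tumors, the products of these target genes are used as tissue markers of hypoxia. The genes described here are 10 by name: the glucose transporter SLC2A1 (GLUT1), the glycolytic enzymes HK2, ALDOA, ENO1 and LDHA, the lactate exporter SLC16A3 (MCT4), the pH-regulating carbonic anhydrase CA9, the HIF prolyl hydroxylase EGLN3, and the secreted factors ADM and VEGFA. Rows were taken by gene symbol from the TMM-normalized table of 25096 genes, which gave 7 of the 10. LDHA was added through the Entrez gene ID of its row, ENSCAFG00000009211, since that row carries no symbol, and ALDOA and ENO1 were not analysed here. None of the 8 genes analysed had a lowest value shared by more than 1 sample, and all passed the filter on low values.

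The samples were 29 invasive urothelial carcinomas (iUC) of the canine bladder, each from a different treatment-naive dog and at least most of them cystoscopic biopsies, and 4 samples of normal bladder mucosa, dissected from bladders of dogs euthanized for other diseases. The dogs were not chosen by age, sex or breed, and the tumors were of high grade and nearly free of non-epithelial cells by histology. Whether the normals came from 4 different dogs is not stated, so the spread between them may be partly technical. Total RNA was depleted of ribosomal RNA and sequenced in a single batch. Each deposited value is on a log2 scale and centred on the gene's median across all 33 samples, so that 0 is the middle sample, a difference of 1 is a doubling, and levels of different genes cannot be compared with each other.

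The groups differed in more than these genes. Genes of olfactory receptors, which the bladder is not known to use, lay above their lowest value in 99.7 to 100% of cases in the normals and in 7.1 to 91.3% in the tumors (median 21.3%), and 755 to 1019 genes sat at their lowest value in a normal against 3699 to 8175 in a tumor. Over all 24471 genes tested the median difference was -0.84 on the log2 scale, tumor minus normal. With DESeq normalization in place of TMM it was -1.11. The normals, which the labels give as mucosa by title and as urothelial cells by source, carried smooth muscle transcripts: the mean level of 6 smooth muscle markers (ACTG2, MYH11, TAGLN, CNN1, TPM2 and LMOD1) was 5.31 to 7.36 in the normals and -1.06 to 4.03 in the tumors. The mean level of 8 urothelial markers was -2.25 to -0.74 in the normals and -1.32 to 0.87 in the tumors, and normal D lay below the other normals in CDH1, KRT19, UPK2 and UPK3A. In such bulk samples fewer cells of a type and less RNA per cell cannot be told apart.

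Of the 8 genes, 5 were higher and 1 was lower in the tumors than in normal mucosa by limma, with an adjusted p of at most 0.05 over all genes tested and a change of at least 2-fold. The 5 that rose were SLC16A3, VEGFA, HK2, LDHA and SLC2A1, and CA9 fell, while ADM and EGLN3 did not pass. Of all genes tested, 10.7% were called higher and 45.8% lower by the same rule. Among genes above the lowest value in at least 17 samples these shares were 14.1% and 30.1%, around a median difference of -0.01. The median of the 8 genes was 1.72. In 3 of the 8 (SLC16A3, VEGFA and LDHA) every tumor lay above every normal, which held for 7.63% of all genes, and in none of the 8 did every tumor lie below every normal, against 28.5% of all genes.

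**Figure D1:**
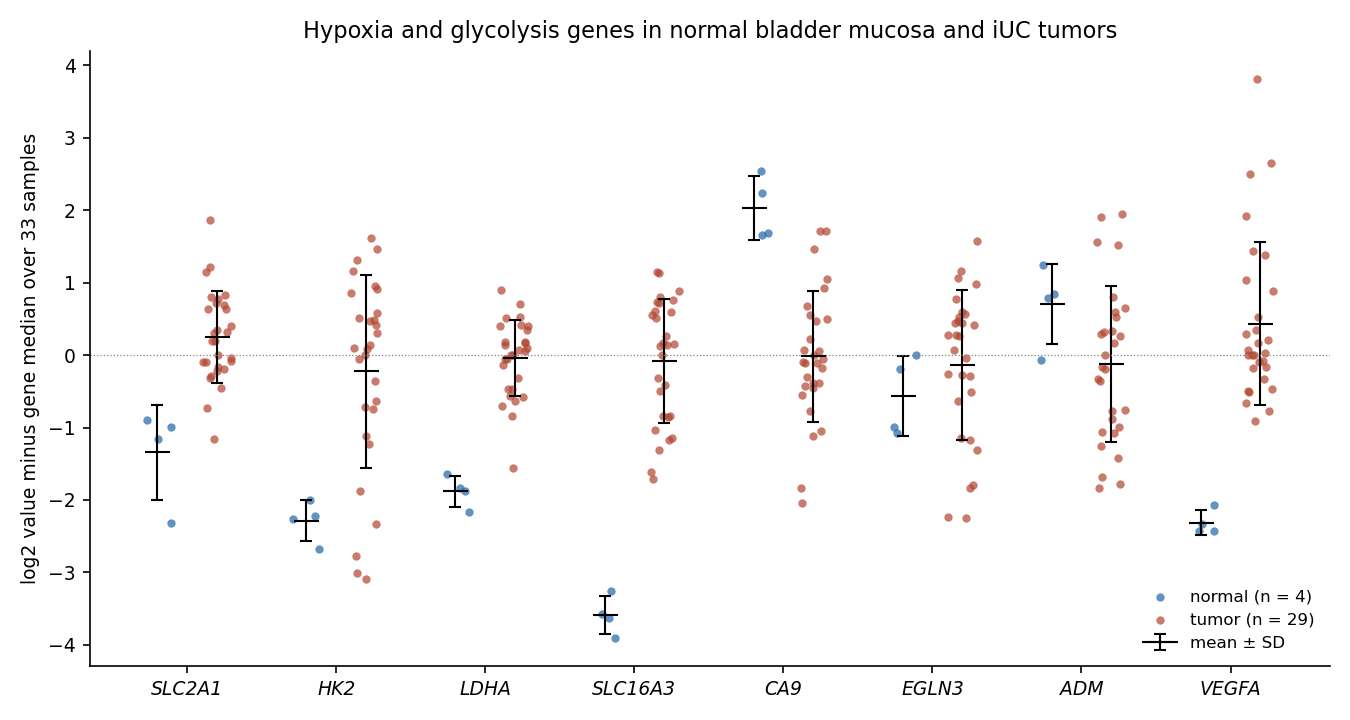
Level of each of the 8 genes (log2, centred on the gene's median across all 33 samples) in the 4 normals (blue) and 29 tumors (red), with the mean and SD of each group in black. The tumors lie clear of the normals for LDHA, SLC16A3 and VEGFA, nearly so for SLC2A1 and, in the opposite direction, for CA9, and the groups overlap for EGLN3 and ADM.

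Glucose enters through SLC2A1, the basal glucose transporter of many epithelia. Its level was -1.16, -0.996, -0.90 and -2.32 in normals A, B, C and D, the order kept below, and it ran from -1.15 to 1.86 in the tumors (median 0.20). Normal D was the lowest of all samples, and 28 of the 29 tumors lay above every normal. The difference was 1.60 ± 0.33 on the log2 scale (SE, 3.02-fold, limma, adjusted p = 7.63e-05), and it was 1.27 without normal D. HK2, the hexokinase that traps glucose in the cell and is bound to mitochondria, had values of -2.21, -1.99, -2.68 and -2.26 in the normals and spread from -3.09 to 1.62 in the tumors (median 0.09). The normals agreed closely, whereas the tumors did not: 25 lay above every normal, and tumors 20, 8_734_223 and 3 lay below all of them. The difference was 2.06 ± 0.66 (SE, 4.17-fold, limma, adjusted p = 0.00622).

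LDHA, the lactate dehydrogenase subunit that favours the step from pyruvate to lactate, was at -1.65, -1.83, -1.88 and -2.17 in the normals and at -1.56 to 0.90 in the tumors (median 0.06). No tumor reached down to the normals, although tumor 15 came close to normal A. The difference was 1.84 ± 0.27 (SE, 3.58-fold, limma, adjusted p = 3.79e-07). SLC16A3, which carries lactate and a proton out of glycolytic cells, had the largest change of the 8. Its level was -3.26, -3.63, -3.58 and -3.90 in the normals and -1.72 to 1.15 in the tumors (median 0.13). The lowest tumor, tumor 4, was still well above the highest normal, and the difference was 3.51 ± 0.44 (SE, 11.4-fold, limma, adjusted p = 1.08e-08).

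CA9, a membrane enzyme that hydrates carbon dioxide outside the cell and a standard tissue marker of hypoxia, ran against these. It was at 1.68, 1.66, 2.24 and 2.55 in the normals and at -2.04 to 1.72 in the tumors (median -0.10). In 27 of the 29 tumors it lay below every normal, and the other two, Da6 and 11, lay within the range of the normals. The level was 4.13-fold lower in the tumors, a difference of -2.05 ± 0.45 (SE, limma, adjusted p = 0.000159). The smooth muscle markers, all 6 of which were lower in the tumors (median -6.21), moved in the same direction, and their part in the CA9 difference was not tested.

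EGLN3, an oxygen-dependent prolyl hydroxylase that marks HIF alpha subunits for degradation and is itself induced by them, was at -1.08, -0.19, 0.00 and -0.99 in the normals and at -2.24 to 1.58 in the tumors (median 0.26). Tumors lay on both sides, 16 above and 7 below every normal. The difference of 0.43 ± 0.52 (SE, limma, adjusted p = 0.461) had an approximate 95% interval of -0.58 to 1.45, which takes in a rise of more than 2-fold. ADM, a vasodilator peptide, stood at -0.06, 1.24, 0.85 and 0.78 in the normals and at -1.83 to 1.95 in the tumors (median -0.16), with 15 tumors below and 4 above every normal. Its difference was -0.83 ± 0.54 (SE, limma, adjusted p = 0.165, approximate 95% interval -1.88 to 0.22).

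VEGFA, the main growth factor for blood vessels, was at -2.32, -2.43, -2.43 and -2.07 in the normals and at -0.91 to 3.82 in the tumors (median 0.04). The normals lay close together and all 29 tumors lay above them. Tumors JE (3.82), 12 (2.65) and Da6 (2.50) stood at the upper end. The difference was 2.75 ± 0.55 (SE, 6.71-fold, limma, adjusted p = 4.66e-05). An exact permutation test of each gene alone, two-sided over the 40920 ways to draw 4 of the 33 samples, gave p = 2.44e-05 for LDHA and SLC16A3, the smallest it can give, and p = 9.78e-05 for VEGFA, 7.33e-05 for SLC2A1, 0.000147 for CA9 and 0.00389 for HK2, against 0.144 for ADM and 0.430 for EGLN3.

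Of 11 other glycolysis genes described, 4 were higher and 1 lower in the tumors, against 10.7% and 45.8% of all genes, with a median difference of 0.76. ALDOC, an aldolase isozyme, rose by 2.14 ± 0.41, PFKFB3, which makes the activator of phosphofructokinase, by 1.82 ± 0.53, GPI, the glucose-6-phosphate isomerase, by 1.30 ± 0.31, and the hexokinase HK1 by 1.21 ± 0.28 (log2, SE, limma, adjusted p = 2.52e-05, 0.00301, 0.000402 and 0.000261). HK1 was under 2-fold with DESeq normalization (0.91). The phosphofructokinase PFKP (0.76 ± 0.48), the lactate transporter SLC16A1 (0.99 ± 0.70) and its chaperone BSG (0.53 ± 0.24) did not pass both thresholds, and nor did HK3, ENO3 and PFKFB4. The 1 lower gene rests on an uncertain row. That row, with the symbol GAPDH, differed by -4.70 ± 0.36, but it carries no gene ID, lay at the lowest value in 20 of the 29 tumors and belongs to a gene with near-identical copies elsewhere in the genome.

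Of 13 other hypoxia-inducible genes, 5 were higher and 2 lower, against 10.7% and 45.8% of all genes, with a median of 0.57. NDRG1, a stress-response gene, rose by 1.84 ± 0.26, the endoplasmic reticulum oxidase ERO1A by 1.64 ± 0.37, the collagen prolyl hydroxylase subunit P4HA1 by 1.53 ± 0.29 and the histone demethylase KDM3A by 1.22 ± 0.16 (log2, SE, limma, adjusted p = 1.77e-07, 2.00e-04, 1.67e-05 and 1.97e-08). KDM3A was under 2-fold with DESeq normalization (0.92). STC2, a secreted glycoprotein, passed at 1.64 ± 0.66 (limma, adjusted p = 0.0277) but not with DESeq normalization (adjusted p = 0.0733) or without normal A, C or D (adjusted p = 0.0661, 0.0780 and 0.0529). LOX, the enzyme that crosslinks collagen, was lower by -3.97 ± 0.53 and below every normal in all 29 tumors, which held for 28.5% of all genes. Of 6 fibroblast markers 4 were lower and 1, PDGFRA, was higher (1.62 ± 0.52, adjusted p = 0.00644, median of the 6, -2.36). DDIT4, an inhibitor of mTOR signalling, was lower by -1.43 ± 0.50 (adjusted p = 0.0115), which did not pass without normal C (-1.27, adjusted p = 0.0501). ANGPTL4, BHLHE40, PLOD2, P4HA2, ANKRD37 and EGLN1 did not pass.

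None of 5 oxygen sensing genes passed both thresholds (median 0.26). Only EGLN2 passed the adjusted p (0.49 ± 0.18, SE, limma, adjusted p = 0.0165), and it did not with DESeq normalization (0.20, adjusted p = 0.345). HIF1A, the alpha subunit whose protein is set by oxygen, differed by 0.16 ± 0.20, its relative EPAS1 by 0.61 ± 0.40 and the partner subunit ARNT by 0.26 ± 0.15 (log2, SE, limma, adjusted p = 0.489, 0.169 and 0.118). With DESeq normalization the signs of HIF1A, ARNT and EGLN1 were the opposite. None of the 4 measured genes of receptors for VEGFA and ADM passed either (KDR, FLT1, NRP1 and RAMP1, median 0.12). CALCRL, RAMP2 and RAMP3 were not analysed here, so no complete ADM receptor was covered. RAMP1 lay at its lowest value in 7 tumors and 1 normal. The VEGFA receptors KDR and FLT1 differed by 0.09 ± 0.56 and 0.66 ± 0.61, and NRP1, a coreceptor, by -0.86 ± 0.45, where the sign of KDR was the opposite with DESeq normalization or without normal B. NRP1 was called lower with DESeq normalization (-1.16, adjusted p = 0.0222). None of 5 endothelial markers (PECAM1, CDH5, TEK, TIE1 and ESAM) passed, with a median of -0.03, but TEK was lower with DESeq normalization (-1.08, adjusted p = 0.0333). Of 8 urothelial markers 5 were higher (EPCAM, CDH1, KRT19, UPK3A and GRHL3, median of the 8, 1.11), of which KRT19 (0.79) and GRHL3 (0.83) were under 2-fold with DESeq normalization, and 6 of 7 proliferation genes were higher, with a median of 2.75. None of 6 leukocyte markers (median 0.23) or 3 squamous and basal keratin markers (0.25) passed, nor did 4 of 5 macrophage and neutrophil markers (0.47), CD68 being the one that was higher. With DESeq normalization the list medians were 0.46 for glycolysis, 0.28 for hypoxia-inducible genes, -0.04 for oxygen sensing, -0.14 for receptors, -0.33 for endothelial, 0.17 for macrophage and neutrophil, -0.07 for leukocyte, -0.05 for squamous and basal keratin and 0.81 for urothelial markers, so that those of oxygen sensing, receptors, leukocyte and squamous genes changed sign.

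**Figure D2:**
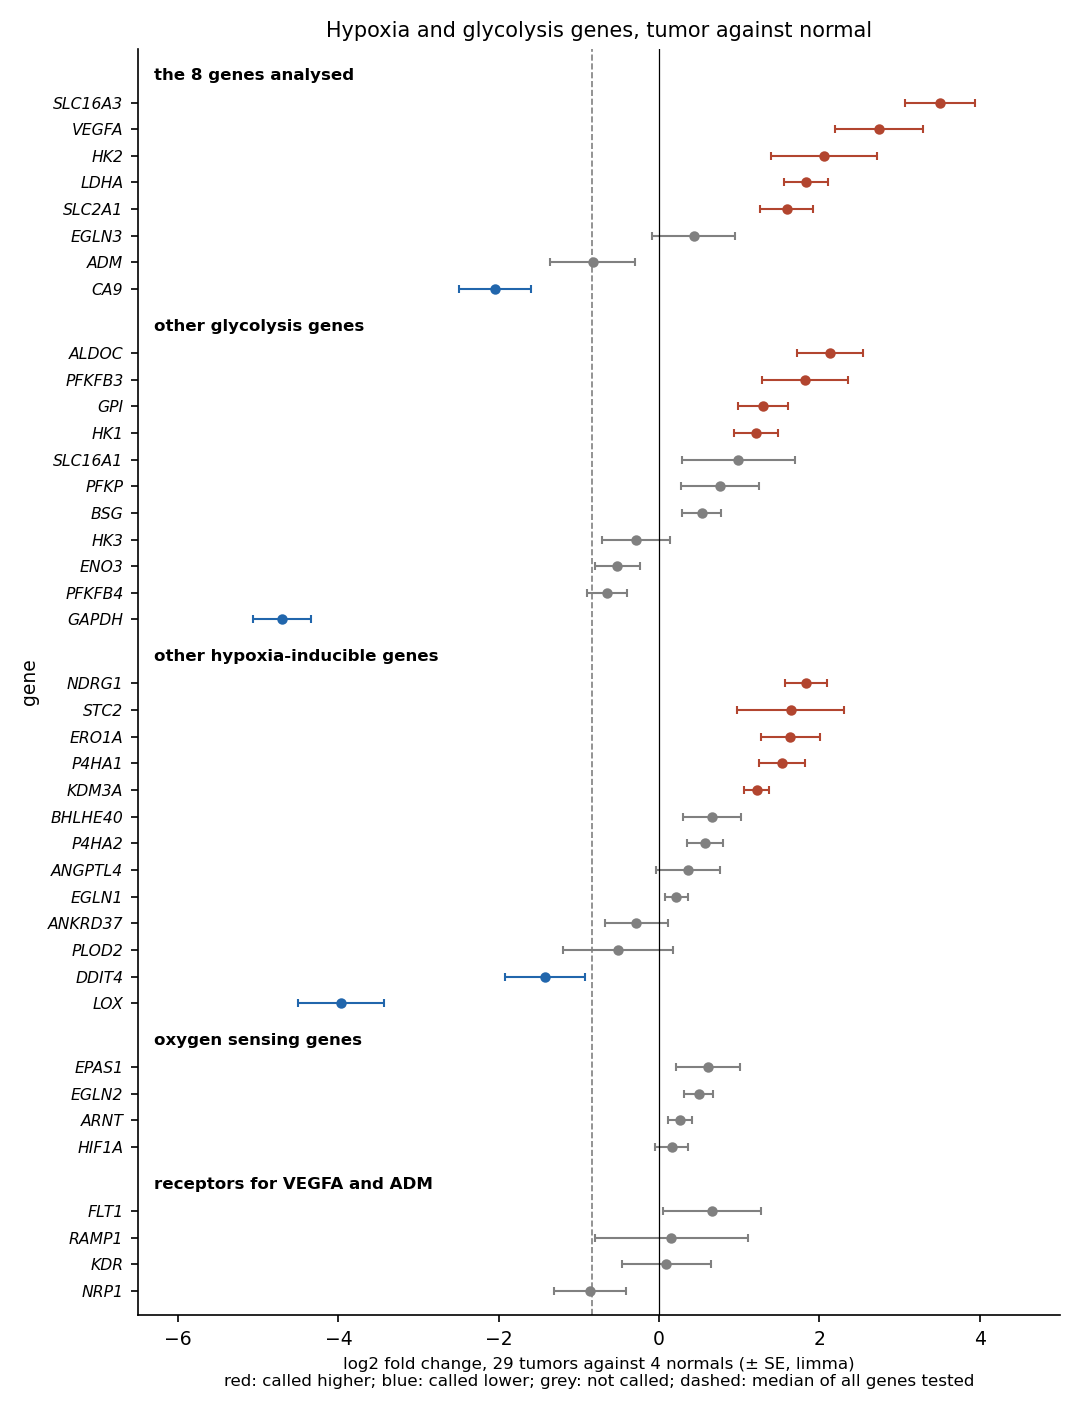
Difference between 29 tumors and 4 normals (log2, points) with its SE (bars) for the 8 genes and 4 lists of related genes, EGLN1 being drawn once. Red and blue mark genes called higher and lower, grey those not called, and the dashed line is the median of all genes tested, -0.84. The glycolysis and hypoxia lists hold genes on both sides, whereas no oxygen sensing gene or receptor is called.

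Among the tumors alone the 8 genes did not vary as one. Of their 28 pairs, 24 had a positive Pearson's r over the 29 tumors, and the median was 0.22. Each r was set against all 22029 other genes tested with the same gene, with a two-sided permutation p from 100000 resamples. No pair passed an adjusted p of 0.05 from both of its genes, by Pearson's r or by Spearman's rho, where the share of all genes called with a positive sign was 0.0357% and 0.00965%. The lowest adjusted p, taking the larger of each pair, was 0.250 by r and 0.110 by rho. At an unadjusted p of at most 0.05, 11 pairs were positive by r and 10 by rho, and none was negative, against 5.16% and 5.24% of all genes with a positive sign.

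**Figure D3:**
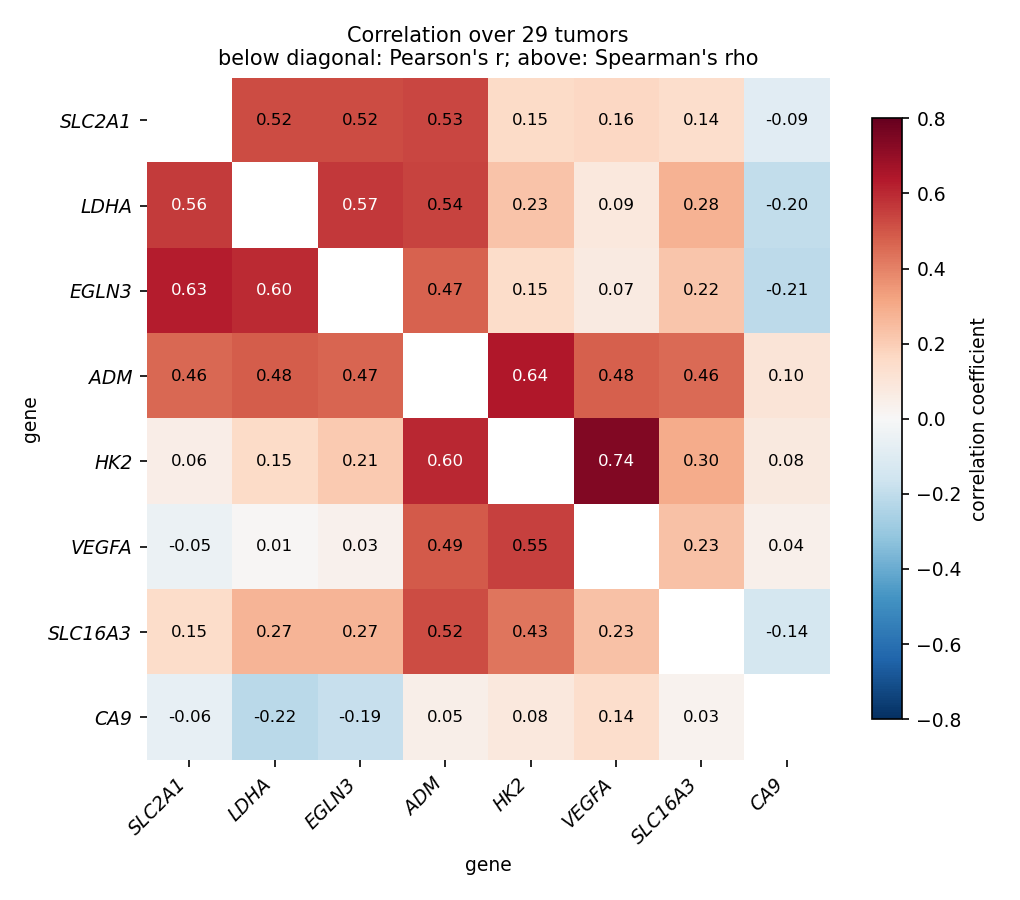
Correlation of each pair of the 8 genes over 29 tumors, Pearson's r below the diagonal and Spearman's rho above it, coloured from blue (negative) to red (positive). SLC2A1, LDHA and EGLN3 form one block of higher values and HK2 and VEGFA another, ADM is positive with every gene in both, and the row and column of CA9 stay between -0.22 and 0.14.

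The first block held the glucose transporter, lactate dehydrogenase and the prolyl hydroxylase. SLC2A1 and EGLN3 had r = 0.63 (permutation p = 0.0002) and rho = 0.52 (permutation p = 0.00389), and r was 0.47 and 0.53 after the 2 most distant tumors of either gene were left out. EGLN3 stood above 99.98% of genes ranked by their r with SLC2A1, and SLC2A1 above 99.97% of genes ranked by their r with EGLN3. The larger adjusted p was 0.519. LDHA and EGLN3 had r = 0.60 (permutation p = 0.00064) and rho = 0.57 (permutation p = 0.00178), and r was 0.52 and 0.42 without the tumors farthest in the first and in the second. SLC2A1 and LDHA had r = 0.56 (permutation p = 0.0017) and rho = 0.52 (permutation p = 0.00384), and r was 0.46 and 0.37 in the same way. Tumor 15 was the lowest of all tumors in each of the 3 genes, at -1.15 for SLC2A1, -1.56 for LDHA and -2.24 for EGLN3, and leaving out that tumor alone gave the lowest r of these pairs, 0.55, 0.49 and 0.43 in the order given. Tumor Ab was the highest in both SLC2A1 (1.86) and EGLN3 (1.58).

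HK2 and VEGFA made up the second block, with r = 0.55 (permutation p = 0.00246), and rho = 0.74 (permutation p = 1e-05, the smallest the resamples can give; adjusted p = 0.110). Without the farthest tumors r was 0.57 and 0.48. Tumor JE was the highest in VEGFA and the second highest in HK2 (1.47), and the lowest VEGFA values, in Za (-0.91) and 10 (-0.77), came with HK2 values of -2.33 and 0.09. Neither gene followed the first block: VEGFA had r = -0.05 with SLC2A1, 0.01 with LDHA and 0.03 with EGLN3, and HK2 had 0.06, 0.15 and 0.21.

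ADM was positive with both blocks and with SLC16A3. Its r at an unadjusted p of at most 0.05 covered 6 of the 7 others: HK2 (0.60), SLC16A3 (0.52), VEGFA (0.49), LDHA (0.48), EGLN3 (0.47) and SLC2A1 (0.46), with permutation p of 0.00063, 0.00375, 0.00658, 0.00738, 0.0106 and 0.0115 and a larger adjusted p of 0.273 to 0.540. Without the 2 tumors farthest in ADM, which were also the 2 farthest in VEGFA, the r of ADM and VEGFA was 0.21, so that by r this relation rested on those tumors, while rho over all 29 was 0.48 (permutation p = 0.00942). SLC16A3, the gene with the largest rise in tumors, had r at an unadjusted p of at most 0.05 with ADM and HK2 (0.43, permutation p = 0.0214, with rho = 0.30, permutation p = 0.121). The r with HK2 was 0.24 without the tumors farthest in HK2 and 0.33 without those farthest in SLC16A3. CA9 had none, with r between -0.22 (LDHA) and 0.14 (VEGFA).

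Some tumors were at the same end for several genes and others at opposite ends. Tumor 20 was among the 3 lowest in CA9, HK2, ADM and SLC16A3, and tumor 8_734_223 among the 3 lowest in HK2, LDHA, EGLN3 and ADM. Tumor 12 was among the 3 highest in ADM, VEGFA and SLC16A3, JE in HK2, ADM and VEGFA, and Ab in SLC2A1, HK2 and EGLN3. By contrast tumor 7_733858 was among the 3 highest in CA9 and the 3 lowest in SLC2A1, LDHA and VEGFA, Za among the 3 highest in SLC2A1 and the 3 lowest in VEGFA and SLC16A3, and tumor 4 among the 3 highest in EGLN3 and the lowest in SLC16A3. The median over the 8 genes was lowest in 8_734_223 (-0.93) and 3 (-0.92) and highest in Ab (0.87) and 12 (0.81). The olfactory receptor share of 20, 8_734_223, 12, JE, Ab and 3 was 7.1 to 38.5%. Over the 29 tumors none of the 8 genes passed the adjusted threshold with that share, the highest r being 0.36 for HK2 (permutation p = 0.0527, adjusted p = 0.287), while 7.16% of all genes were called positive and 0.177% negative.

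**Figure D4:**
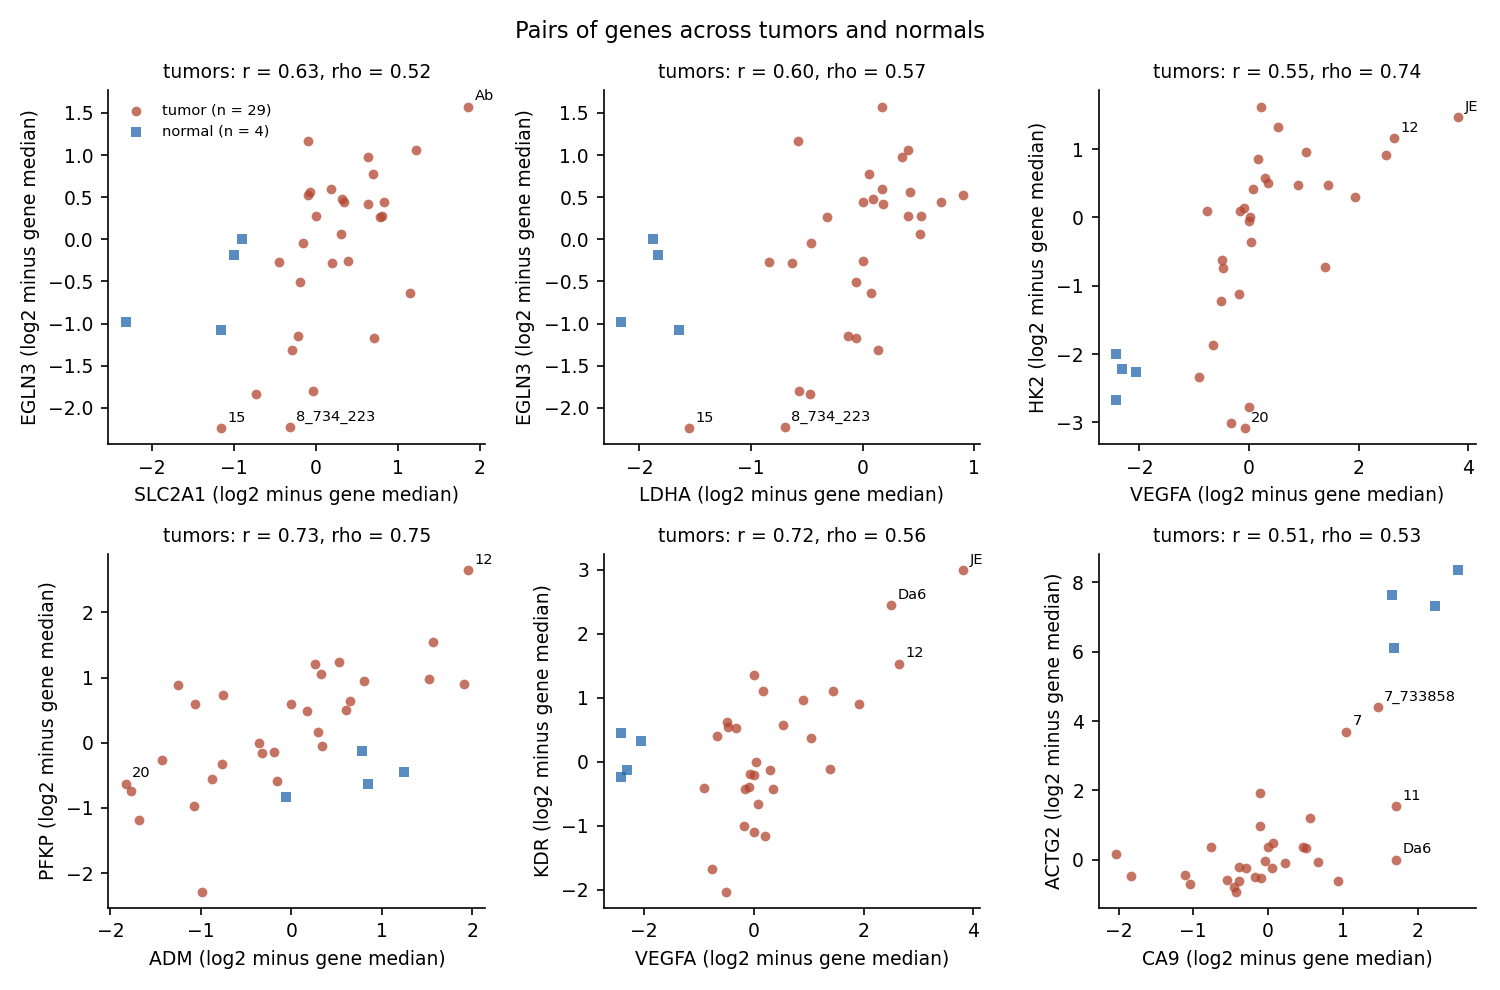
Values of 6 pairs of genes (log2 minus the gene median on both axes) in 29 tumors (red circles) and 4 normals (blue squares), with r and rho over the tumors above each panel and tumors named in the text labelled. Tumor 15 sits at the low end of the SLC2A1, LDHA and EGLN3 panels and JE at the high end of the VEGFA panels, and ACTG2 is higher in the 4 normals than in all 29 tumors.

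Genes that followed each of the 8 most closely differed from gene to gene. LDHA was the only one with positively correlated genes past the adjusted threshold by r, 63 of 22029 (0.286%), and 14 were negative (0.0636%). The 5 highest were DRG2, a GTPase (r = 0.86), PARK7, a redox-sensitive chaperone (0.84), DHODH, an enzyme of pyrimidine synthesis (0.80), the translation factor EIF4A1 (0.75) and the Golgi tethering subunit COG4 (0.75), each with adjusted p = 0.0184. With rho they had 0.80, 0.80, 0.75, 0.75 and 0.72. Of these 5 none was called in the tumors against the normals, the nearest being COG4 at 0.97 ± 0.18, just under 2-fold.

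ADM was closest to ERRFI1, a feedback inhibitor of the EGF receptor (r = 0.81, adjusted p = 0.0551), followed by 2 genes of the glycolysis list, PFKP (0.73, adjusted p = 0.0551) and PFKFB3 (0.71, adjusted p = 0.0847), and by DAPK3 (0.70) and ITPR3, a calcium channel (0.70). Without the 2 tumors farthest in ADM the lowest r of the 5 was 0.59 (DAPK3). PFKP also had r = 0.62 with SLC16A3, 0.59 with HK2 and 0.53 with EGLN3, and PFKFB3 had 0.64 with SLC16A3 and 0.56 with HK2, none past the adjusted threshold.

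VEGFA was closest to its own receptor KDR (r = 0.72, adjusted p = 0.0734, rho = 0.56), then GRB10 (0.69), POLH (0.69, with rho = 0.24 and r = 0.31 without the 2 tumors farthest in VEGFA, on which it rested), the transcription factor CEBPB (0.68) and ARL15 (0.68). FLT1, its other signalling receptor, had r = 0.68 with it (rho = 0.49, adjusted p = 0.0836). Tumor JE had 2.99 for both KDR and FLT1 and tumor Da6 had 2.44 and 3.01, and without the 2 tumors farthest in VEGFA the r was 0.58 for KDR and 0.62 for FLT1. The endothelial markers had a median r of 0.34 with VEGFA, and 2 of 5 passed an unadjusted p of 0.05, against 5.03% of all genes, but 0 of 5 without the 2 tumors farthest in VEGFA. The mean level of these markers was 1.46 in JE and 1.14 in Da6, the 2 highest of the tumors, and its part in the relation was not tested. CEBPB was also among the 5 genes closest to HK2 (0.69), beside OR2R1 (0.72), CST (0.68), MYRF (0.67) and the insulin receptor INSR (0.67), all with adjusted p = 0.131. OR2R1 belongs to the olfactory receptors.

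EGLN3 was closest to CDH1, the epithelial cadherin (r = 0.72, adjusted p = 0.110, rho = 0.64), then ZBTB48, AASDH, TTC4 and TMUB1 (0.65 to 0.63). CDH1 also had r = 0.59 with SLC2A1 and 0.58 with LDHA. Among the genes closest to SLC2A1 were FAM71F2 (0.68), TERF2IP (0.65), the G protein subunit GNB1 (0.64) and DYNC1LI2 (0.62), all with adjusted p = 0.519. SLC16A3 was closest to MASTL, a kinase that drives mitosis (0.76, adjusted p = 0.0881), YBX2 (0.73), OSER1 (0.72), PITRM1 (0.70) and DHX33 (0.69). CA9 was closest to SYTL3 (0.74, adjusted p = 0.220), TSPOAP1 (0.67), ANKRD28 (0.66), CYTH1 (0.66) and SLITRK5 (0.65).

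No gene of the pathway or cell type lists passed the adjusted threshold with any of the 8, by r or by rho, so the lists are given by their medians and by counts at an unadjusted p of at most 0.05. The median r with ADM was 0.43 over 11 other glycolysis genes and 0.38 over 13 other hypoxia-inducible genes, where 6 and 7 were positive at that level, against 4.67% of all genes and a median of 0.01. Without the 2 tumors farthest in ADM these positive counts were 5 and 4. HK3 of the glycolysis list was negative with ADM at that level (r = -0.45, permutation p = 0.0134), and at -0.45 without those tumors. The medians of the glycolysis and hypoxia-inducible lists were -0.03 and 0.11 with CA9, and 0.31 and -0.02 with SLC16A3. All 7 proliferation genes were positive with SLC16A3 at that level (median 0.49, 6.14% of all genes), led by CCNB1 (0.62) and PLK1 (0.60), while 3 of 5 macrophage and neutrophil markers were negative (median -0.39, 6.2%).

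**Figure D5:**
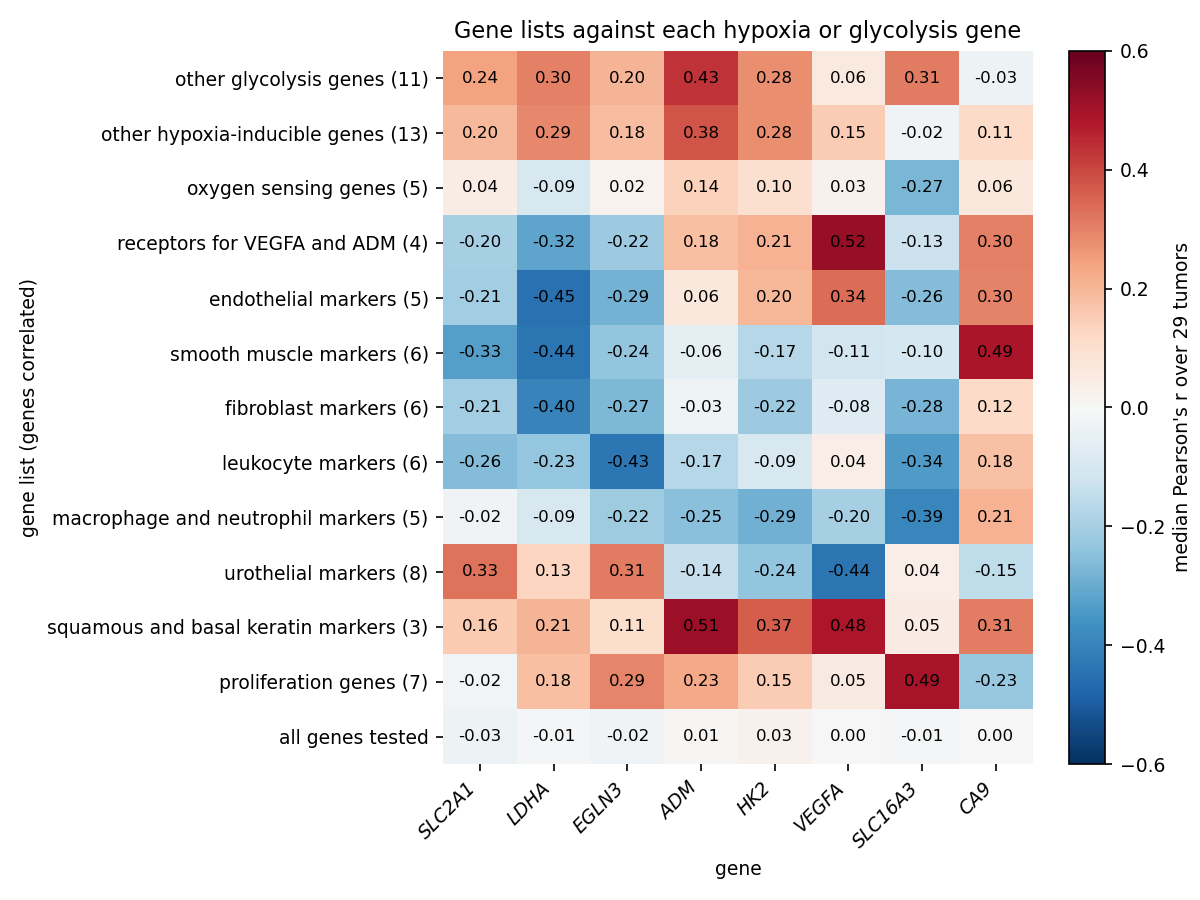
Median Pearson's r over 29 tumors between each of the 8 genes (columns) and the genes of each list (rows, with the number of genes correlated), with the median over all genes tested in the bottom row, which lies between -0.03 and 0.03. The highest medians are those of VEGFA with the receptors for VEGFA and ADM (0.52), of ADM with the keratinocyte list (0.51), and of CA9 with smooth muscle and SLC16A3 with proliferation (both 0.49).

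All 6 smooth muscle markers were positive with CA9 at an unadjusted p of at most 0.05 (r of 0.40 to 0.51, median 0.49, 4.08% of all genes), led by ACTG2 (0.51, permutation p = 0.00501, adjusted p = 0.734). The mean level of the markers was -0.03, 0.76 and 4.03 in the 3 tumors with the most CA9 and -0.84, -0.69 and -0.05 in the 3 with the least. It was highest in tumors 7_733858 (4.03) and 7 (3.34), followed by Sp (1.48). CA9 was at 1.47 in 7_733858 and 1.05 in 7, and how far the relation rested on those tumors was not tested. With LDHA 4 of the 6 were negative (median -0.44), as were 3 of 5 endothelial markers (-0.45) and 3 of 6 fibroblast markers (-0.40), where 7.01% of all genes were negative at that level. Without the 2 tumors farthest in LDHA the counts were 2 of 6 for smooth muscle, 3 of 5 for endothelial and 4 of 6 for fibroblast markers, while leukocyte markers went from 0 to 4 of 6 and the receptors for VEGFA and ADM from 1 to 3 of 4. With EGLN3 4 of 6 leukocyte markers were negative (median -0.43, 5.49%). With VEGFA 5 of 8 urothelial markers were negative (median -0.44, 4.36%), among them UPK2 (-0.62) and UPK1A (-0.57), and without the 2 tumors farthest in VEGFA 3 of 8 were, UPK2 being at -0.45, UPK1A at -0.63, UPK3A at -0.26 (from -0.49) and GRHL3 at -0.27 (from -0.44). With SLC2A1, EGLN3 and LDHA the medians of these markers were 0.33, 0.31 and 0.13, against -0.03, -0.02 and -0.01 over all genes. At that level 4, 2 and 3 of the 8 were positive, against 5.16% of all genes over the 8 hypoxia and glycolysis genes together. Without the 2 farthest tumors these counts were 2, 3 and 1. All 3 squamous and basal keratinocyte genes measured (KRT14, DSG3 and CD44) were positive with both ADM and VEGFA at that level (medians 0.51 and 0.48, against 4.67% and 5.03% of all genes), and 3 and 2 of 3 were without the 2 farthest tumors, CD44 reaching 0.69 with ADM (adjusted p = 0.0847). Their part in the relations among the 8 genes was not tested.

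The study grouped these tumors with a list of basal and luminal genes, chosen in part on the same samples. The 8 genes were set against the first principal component of 635 genes, the part of that list analysed here, which held 25.1% of their variance and was signed so that PPARG and CDH1 fall along it on average. It followed the markers in part: GRHL3 (r = -0.61, adjusted p = 0.00945) and UPK2 (-0.54, adjusted p = 0.0389) fell along it, as CDH1 did (-0.67), whereas the other 5 urothelial markers, EPCAM (0.05), UPK1A (-0.05), UPK3A (-0.18), KRT19 (-0.24) and GATA3 (-0.37), and the keratinocyte genes KRT14 (0.27), CD44 (0.33) and DSG3 (0.46) did not pass the adjusted threshold. SLC16A3 is one of those genes and was set against the component without itself. By Pearson's r none of the 8 passed the adjusted threshold, where 5.31% of all genes were positive and 1.4% negative. At an unadjusted p of at most 0.05 CA9 was positive (r = 0.45, permutation p = 0.0152, adjusted p = 0.133) and LDHA (-0.49, permutation p = 0.00599, adjusted p = 0.0736), SLC16A3 (-0.40, permutation p = 0.0332, adjusted p = 0.209) and EGLN3 (-0.38, permutation p = 0.0416, adjusted p = 0.237) were negative, against 12.2% and 6.88% of all genes. By Spearman's rho CA9 (0.55, permutation p = 0.00215, adjusted p = 0.0383) and LDHA (-0.54, permutation p = 0.00273, adjusted p = 0.0452) passed, with 5% of all genes positive and 1.41% negative. Without the 2 tumors farthest along the component r was 0.39 for CA9 and -0.53 for LDHA. HK2, ADM and VEGFA had r between -0.07 and 0.09 with the component, and the r of SLC2A1 was -0.32 (permutation p = 0.0959, adjusted p = 0.371).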

How the data were processed

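Bladder tissue, 29 iUC tumors and 4 normal samples, was sequenced in 1 batch from rRNA-depleted total RNA (ScriptSeq v2, HiSeq 4000, per the labels). The authors cleaned the paired reads, aligned them to CanFam3.1 with COBWeb in Strand NGS 3.1, and normalized the annotated genes by TMM and, in a second table, by DESeq. The deposited values are log2, with the gene's own median across samples subtracted. They hold no read counts, so a count model was not used, the depth behind each value is unknown, and the precision is that of the spread between samples. The final line of both tables is incomplete and was left out. A lowest value that a gene has in more than 1 sample was taken as its floor.

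Genes above the floor in at least 4 samples were tested two-sided with limma 3.58.1 (R 4.3.3, mean-variance trend). P-values were adjusted by Benjamini-Hochberg over all genes, and calls needed 0.05 and a 2-fold change. Correlations over tumors used 22030 genes and 100000 permutations in Python 3.11.15 (numpy 2.4.6, pandas 2.3.3, scipy 1.17.1). Both were tested on simulated data. Symbols missing from the table were matched by Entrez gene ID to RefSeq (assembly UU_Cfam_GSD_1.0, names only). Named genes are the 8 genes, the lists, and the 5 genes most correlated with each of the 8. Of 116 list entries 79 were analysed here, and list counts and medians cover only those (11 of 21 for glycolysis, 13 of 18 for hypoxia-inducible genes, 4 of 8 for receptors, 3 of 7 for squamous genes). Some further listed or correlated genes are not reported here. Genes and lists were chosen with earlier results of these data known. Alternatives were the second table as deposited by the authors, limma without the trend or with group weights, other filters, recentred samples, no fold threshold, each normal left out, an exact permutation test, Spearman's rho, the 2 farthest tumors left out, and the component or olfactory receptor share regressed out. Leaving out each tumor, or the 3 with the highest olfactory receptor share, was chosen after seeing the data.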

Additional observations from a re-analysis of the deposited data

Results flagged for a closer look

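Of 86 genes checked, 5 had 1 normal sample far from the other 3 by the gap to the nearest of them over the whole range, which chance gives in about 1 of 20 groups. Normal D had lower values than the other normals in 4 urothelial genes: CDH1 (-2.93 against -1.83 to -1.69), KRT19 (-1.79 against -0.64 to -0.50), UPK2 (-2.14 against 0.35 to 0.38) and UPK3A (-3.20 against -1.39 to -1.18). Normal C had a lower value of EPAS1 (-0.72 against -0.54 to -0.51). None of the 8 hypoxia and glycolysis genes was among the 5. With 29 tumors, no tumor was checked in this way.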

How the results depend on the processing

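The 5 rises and the fall of CA9 were called under each of the alternatives run, the 4 fits without 1 normal and the exact test included, and ADM and EGLN3 were called under none. With DESeq normalization 1377 genes in all were called higher, against 2615, and the differences were 1.30 for SLC2A1, 1.76 for HK2, 1.54 for LDHA, 3.21 for SLC16A3, 2.45 for VEGFA, -2.34 for CA9, -1.13 for ADM (adjusted p = 0.0611) and 0.13 for EGLN3. There HK1 (0.91), KDM3A (0.92), KRT19 (0.79), GRHL3 (0.83) and STC2 (1.35, adjusted p = 0.0733) were not called, NRP1 (-1.16), TEK (-1.08) and PDGFRB (-1.44) were called lower, and the sign was the opposite for EGLN1 (-0.082), HIF1A (-0.14), ARNT (-0.036), KDR (-0.21) and RAMP1 (-0.074), and among cell type markers for AIF1 (-0.053), ESAM (-0.0013), UPK1A (-0.27), UPK2 (-0.25), DSG3 (-0.26) and CD44 (-0.047). Without normal B the sign was the opposite for KDR (-0.022) and RAMP1 (-0.53), and over the 4 fits without 1 normal KDR ran from -0.022 to 0.21 and RAMP1 from -0.53 to 0.60. Among all list genes 22 were higher and 13 lower, against 19 to 23 and 12 to 13 in fits without 1 normal and 17 and 16 with DESeq normalization. Spearman's rho put 2 of the 8 genes past the adjusted threshold with the component, and Pearson's r put 0. Without the 2 farthest tumors 7 of the 11 positive pairs at an unadjusted p of at most 0.05 passed from both genes, and those that did not were SLC2A1 with LDHA, HK2 with SLC16A3, ADM with VEGFA and ADM with EGLN3. No paired analysis was possible because the normals and the tumors share no replicate number. With no read counts, the depth behind a value is unknown, and with 4 normals a mean of that group rests on few samples. The 2-fold rule left out smaller differences whatever their p.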
